A study of Mus musculus with 12 samples.

Results

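The genes described here are the collagens and a set of stromal matrix genes. They were taken as every array gene whose name is Col followed by a chain number, together with Fn1, Postn, Lum, Dcn, Bgn, Sparc, Tnc, Fbln1, Fbln2, Fbn1, Eln, Lox, Loxl2, Vcan, Thbs1 and Thbs2. This gave 59 of the 30139 genes or transcripts on the array, read by 92 probes. They comprise 11 fibrillar collagens, the 6 chains of collagen IV, which is the collagen of basement membranes, 26 other collagens and 16 other matrix genes. The collagen chain Col26a1 is on the array under its older name Emid2, was not taken by the rule, and lay near background in all groups.

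Gene expression was measured with 12 single-colour arrays in polyps and in normal colorectal tissue of mice that carry the Apc Δ716 allele on 1 chromosome (Apc+/Δ716), and in normal colorectal tissue of wild-type mice. The Apc protein restrains Wnt signalling by helping to degrade beta-catenin, and the mutant mice carry the allele in their normal tissue too. All mice were C57BL/6N females aged 14 weeks. Each group has 4 arrays: Apc polyps and Apc normal tissue of mice 103, 106, 107 and 110, and wild-type normal tissue of mice 102, 104, 105 and 108. No drug was given. Whether a sample pooled several polyps, and how much of the bowel wall each sample held, is not stated in these sources. The mouse numbers in the titles are read as animals, and p-values measure only the spread between these arrays.

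Collagen chains assemble in threes into triple helices. Fibrillar collagens, chiefly types I, III and V in soft tissue, form the tensile fibres of the stroma, and collagen IV forms the sheet on which epithelium, endothelium and muscle cells rest. Collagens VI, VII, XII and XVIII link or anchor these structures, and fibronectin, periostin, thrombospondins and small proteoglycans such as lumican and decorin join cells to fibres or regulate fibre assembly. In the bowel wall, fibroblasts, smooth muscle, endothelium and epithelium all make matrix.

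A level is the log2 signal of a gene's probe relative to the 75th percentile of its array, and says nothing of how abundant a gene is relative to another, since probes differ in brightness. Values per array follow the order of mice 103, 106, 107 and 110 in the polyps and in the Apc normal tissue, and of mice 102, 104, 105 and 108 in the wild-type tissue. A difference is a log2 fold change with its standard error, and a gene is called at an adjusted p under 0.05 (limma, Benjamini-Hochberg over all genes tested). Well above background is the scanner software's own call for a spot. Of the 59 members, 41 were well above background on all 12 arrays, 1 (Col11a1) on none, and 48 were tested in at least 1 comparison. The wild-type array of mouse 108 was the lowest of its group in 33 of the 41 members, and the Apc normal array of mouse 106 the highest of its group in 33 of 41. Where leaving out 1 of these arrays changed the call of a member with values per array, the value without it is given. The counts of called members with 1 array left out are given below. Tissue was measured in bulk, so fewer cells of a type and less RNA per cell cannot be told apart.

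Between polyps and Apc normal tissue the matrix genes did not move as a block: Col7a1, Col9a2, Col9a3, Col5a3, the thrombospondins, fibronectin, Lox and Loxl2 were among those higher in polyps, while Col4a3, Col4a5, collagen VIII, Col6a1, Col6a2, lumican and periostin were lower. Of 48 members tested, 17 were higher, 10 lower and 21 not called. Of those called, Col4a3, Col6a5, Col8a1, Col8a2, Col9a3, Col22a1 and Lox entered the test only through the group where they were higher. In the other group they were not above background on all 4 arrays. Over all 19661 genes tested, 45.7% were called, 21% higher and 24.7% lower, against 56.2% of the tested members. The median difference was 0.17 over the tested members and −0.05 over all genes. All 27 called members had the same direction in each of the 4 mice, when each polyp was set against the normal tissue of its own mouse, which is a description since they were picked as called. With the mouse number as a replicate block, 18 members were higher and 10 lower.

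**Figure D1:**
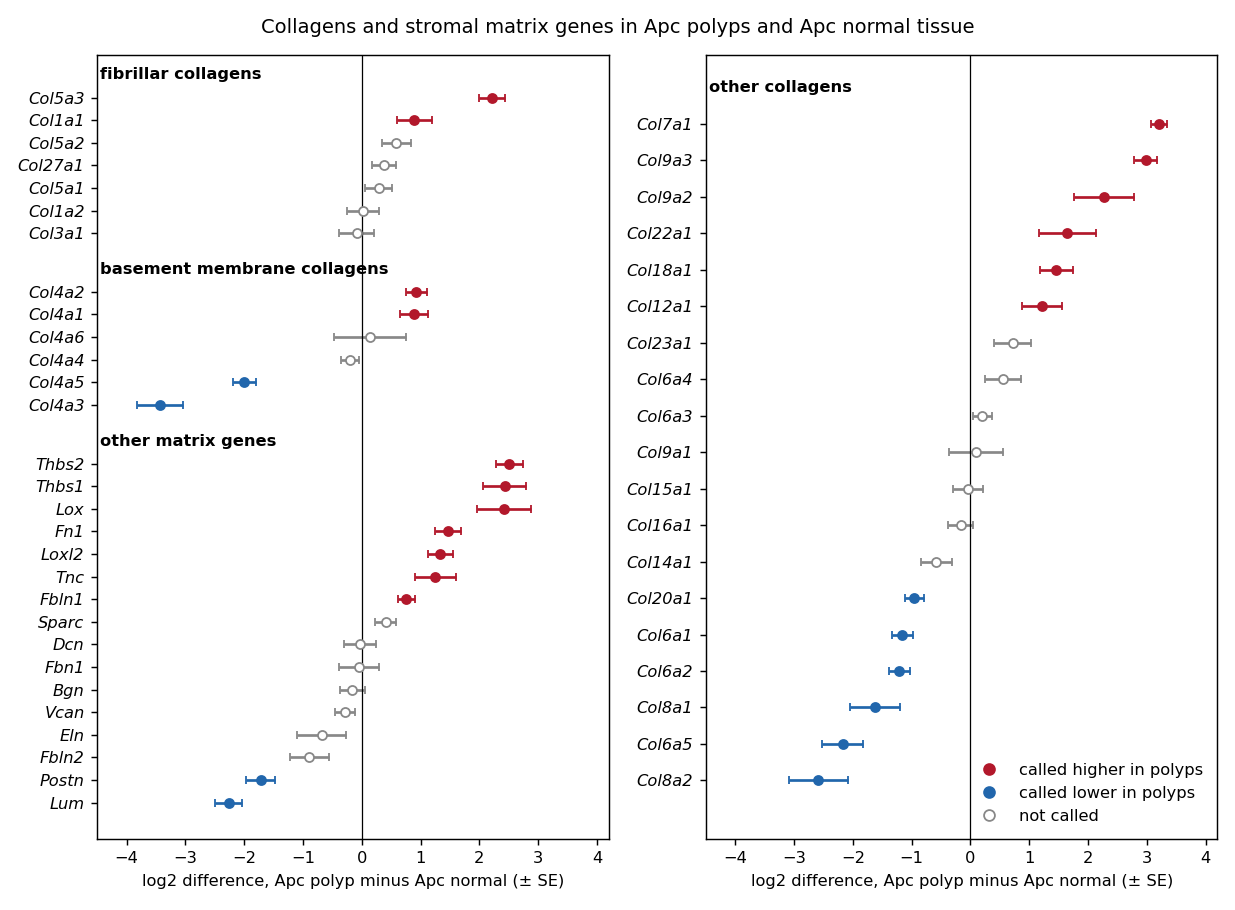
Log2 difference of the 48 tested members between Apc polyps and Apc normal tissue (horizontal axis, with its standard error, 4 arrays each), by class and ordered by size. Red points are the 17 members called higher in polyps, blue points the 10 called lower and open points the 21 not called. Col4a3, Col6a5 and Col8a2 (polyps) and Col9a3 (Apc normal tissue) were above background on no array of the group named, so their points show measured signal and only a bound is known.

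Among the fibrillar collagens, Col5a3 and, weakly, Col1a1 were higher in polyps, while Col1a2 and Col3a1 were not called. Of 7 tested, 2 were higher, 0 lower and 5 were not called. Col1a2, the second chain of collagen I, read 3.73, 3.78, 4.24 and 3.46 in polyps, against 3.78, 4.47, 3.47 and 3.40 in Apc normal and 4.18, 4.18, 4.01 and 2.82 in wild-type tissue. The groups overlapped fully, with the widest spread in the wild-type tissue, and polyps differed from Apc normal tissue by 0.02 ± 0.27. Col3a1, the homotrimeric collagen III of compliant tissue, read 3.60, 3.19, 3.87 and 3.15 in polyps, against 3.50, 4.36, 3.15 and 3.13 in Apc normal and 4.02, 4.16, 4.15 and 2.67 in wild-type tissue. Its difference between polyps and Apc normal tissue was −0.08 ± 0.30, inside the spread of either group. Against wild-type tissue it was −0.30 ± 0.35, and without the wild-type array of mouse 108 it was −0.66 and called lower (limma, adjusted p = 0.0221).

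Col1a1, the first chain of collagen I, read 1.98, 1.92, 2.22 and 1.69 in polyps, against 1.14, 1.88, 0.77 and 0.43 in Apc normal tissue. Wild-type tissue had 1.38, 1.47, 1.08 and 0.00. Only the Apc normal array of mouse 106 reached into the polyp range. The difference from Apc normal tissue was 0.90 ± 0.30 (limma, adjusted p = 0.0377), a weak call: it was 0.44 on the slide of mice 103 and 106 and 1.35 on that of mice 107 and 110. Leaving out any 1 array other than the Apc normal array of mouse 106 gave 0.69 to 0.98, and the adjusted p was then above 0.05.

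Col5a3, a chain of the collagen V that seeds fibrils, read 0.34, 0.75, 0.22 and 0.12 in polyps, against −1.67, −1.38, −2.15 and −2.23 in Apc normal and −1.13, −0.98, −1.07 and −2.65 in wild-type tissue. All polyps lay above every normal array. The difference was 2.22 ± 0.23 from Apc normal tissue (limma, adjusted p = 0.000217) and 1.82 ± 0.37 from wild-type tissue (limma, adjusted p = 0.00314). Its partner chains were not called: Col5a1 differed from Apc normal tissue by 0.29 ± 0.23 and Col5a2 by 0.59 ± 0.24. Col5a1 read −0.68, −0.53, −0.41 and −1.01 in polyps, against −0.96, −0.34, −1.15 and −1.32 in Apc normal and −0.53, −0.43, −0.65 and −1.95 in wild-type tissue, with wide overlap. Col5a2 read −3.36, −3.32, −2.40 and −2.95 in polyps, against −3.21, −3.53, −3.86 and −3.80 in Apc normal tissue. The Col5a2 difference came from mice 107 and 110, with 1.15 on their slide and 0.03 on that of mice 103 and 106. Wild-type Col5a2 levels were −3.51, −3.75, −2.61 and −4.73, and without the wild-type array of mouse 105 the difference of polyps from wild-type tissue was 0.99 and called (limma, adjusted p = 0.048).

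Col27a1 was not called (0.37 ± 0.21). It read −4.66, −4.28, −4.29 and −3.97 in polyps, against −4.72, −4.41, −4.43 and −5.14 in Apc normal and −4.56, −4.12, −4.12 and −4.53 in wild-type tissue. Col2a1, Col11a1, Col11a2 and Col24a1 were too dim to test. Col2a1, the cartilage collagen, was above background on 2 polyp arrays and on no normal array. Its polyp mean includes arrays not above background, so no bound on the difference is given.

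Of the 6 chains of collagen IV, 2 were higher in polyps, 2 lower and 2 not called. Col4a1 and Col4a2, which make the collagen IV found in nearly every basement membrane and lie head to head on chromosome 8, were higher in polyps. Col4a3 and Col4a5, chains of the more restricted networks, were lower. Col4a1 read 1.90, 2.40, 2.38 and 2.005 in polyps, against 0.99, 1.95, 1.03 and 1.17 in Apc normal and 1.01, 1.15, 1.29 and 0.27 in wild-type tissue. The Apc normal array of mouse 106 again came nearest to the polyps, above the lowest of them. The difference from Apc normal tissue was 0.89 ± 0.24 (limma, adjusted p = 0.0164). Col4a2 read 1.59, 2.09, 2.15 and 1.71 in polyps, against 0.84, 1.28, 0.97 and 0.75 in Apc normal and 0.997, 0.91, 0.77 and −0.08 in wild-type tissue. All polyps lay above every normal array, and the difference from Apc normal tissue was 0.93 ± 0.18 (limma, adjusted p = 0.00339). The probes lie at chr8:11199009-11199068 (minus strand, Col4a1) and chr8:11448840-11448899 (plus strand, Col4a2) in mm9.

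Col4a3, on chromosome 1, was well above background in every normal sample and on no polyp array. It read −7.63, −8.11, −6.60 and −7.57 in polyps, against −3.22, −3.92, −4.43 and −4.63 in Apc normal and −3.17, −3.30, −4.03 and −3.41 in wild-type tissue. A probe that is nowhere above background in a group has only a bound there. Set against the dimmest signal well above background on each array (−7.00 to −5.17 over the arrays) or its own where higher, polyps were at least 4.73-fold below Apc normal tissue for Col4a3. The test used the measured difference of −3.43 ± 0.39 (limma, adjusted p = 0.000341) and not this bound. The bound against wild-type tissue was at least 7.03-fold lower. These bounds hold for the scanner's own background subtraction. Under normexp correction, whose added offset draws dim signals together, the difference from Apc normal tissue was −1.01 (limma, adjusted p = 0.0025). Its neighbour and partner Col4a4 read −4.47, −4.39, −4.17 and −4.20 in polyps, against −4.43, −3.90, −4.25 and −3.85 in Apc normal and −4.07, −4.16, −4.06 and −4.08 in wild-type tissue. This chain was not called between polyps and Apc normal tissue (−0.20 ± 0.16).

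Col4a5, on chromosome X, read −3.99, −4.09, −3.97 and −3.98 in polyps, against −2.12, −1.42, −2.15 and −2.34 in Apc normal and −1.71, −1.63, −1.45 and −2.67 in wild-type tissue. All polyps lay below every normal array, with little spread among them. The differences were −1.999 ± 0.19 from Apc normal tissue (limma, adjusted p = 0.000178) and −2.14 ± 0.25 from wild-type tissue (limma, adjusted p = 0.000154). Its neighbour Col4a6 has 2 probes that disagree. The brighter probe, used in the tests, gave 0.14 ± 0.61 between polyps and Apc normal tissue. The other probe read −5.36, −6.42, −6.16 and −5.42 in polyps, against −2.26, −2.03, −2.55 and −2.70 in Apc normal and −1.87, −1.71, −1.61 and −2.85 in wild-type tissue. It was lower on every polyp array than on any normal array, a difference of −3.46 that was not among the tests. This probe was above background on only 2 of 4 polyp arrays, so the size rests on dim signal. Col9a1 has the same kind of disagreement, described with collagen IX below. The first 30 of the 60 bases of each probe are shown because the result for both genes depends on which of them is read. The probes are given in the order used, other for each gene, at chrX:137601433-137601491 and chrX:137599990-137600049 (minus strand) and at chr1:24201545-24201604 and chr1:24259125-24259184 (plus strand), all in mm9.
Col4a6, probe used: cagtccctaatctcccctggctcgtgtctt
Col4a6, other probe: ggcaaagcataacaagtacattctgagctc
Col9a1, probe used: tcattgtgaccccctgagacccaggagaga
Col9a1, other probe: attgctaggatactaaggaacagaccccac

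**Figure D2:**
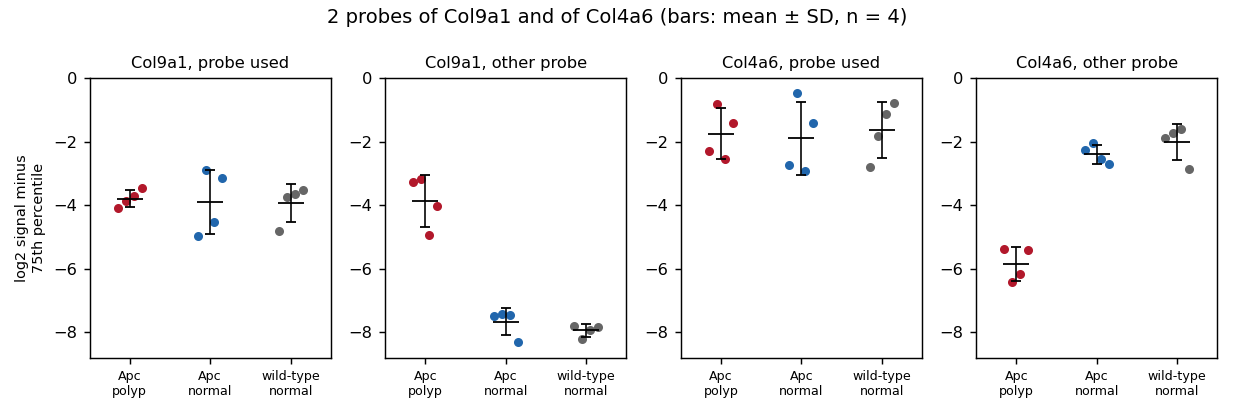
Levels (log2 signal minus the array's 75th percentile) of the 2 probes of Col9a1 and of Col4a6 on each array of Apc polyps, Apc normal and wild-type normal tissue, with mean and SD of 4 arrays. The probe used for each gene overlaps between groups, while the other probe of Col9a1 is high in polyps alone (mean −3.85, against −7.66 in Apc normal tissue) and that of Col4a6 is low in polyps alone (−5.84, against −2.39). The other probe of Col9a1 was above background on no normal array, and that of Col4a6 on 2 of 4 polyp arrays.

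Among the other collagens, 6 were higher, 6 lower and 7 not called of 19 tested. The member furthest above Apc normal tissue was Col7a1, whose product forms the anchoring fibrils that tie an epithelium's basement membrane to the stroma. It read −0.60, −0.43, −0.60 and −0.75 in polyps, against −3.79, −4.09, −3.55 and −3.78 in Apc normal and −3.13, −3.16, −3.18 and −2.94 in wild-type tissue. The 3 groups did not overlap: polyps were highest, wild-type tissue next and Apc normal tissue lowest. The difference was 3.21 ± 0.14 from Apc normal tissue (9.23-fold, limma, adjusted p = 1.33e-05) and 2.51 ± 0.10 from wild-type tissue (limma, adjusted p = 1.87e-06).

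Collagen IX, known from cartilage, where it decorates fibrils, was higher in polyps in the chains Col9a2 and Col9a3. Col9a3 was above background on all 4 polyp arrays and on no normal array. It read −4.93, −4.98, −4.74 and −5.05 in polyps, against −8.07, −7.37, −7.92 and −8.27 in Apc normal and −7.59, −6.93, −7.96 and −7.72 in wild-type tissue. Polyps were thus at least 1.996-fold higher than Apc normal tissue. The test used the measured difference of 2.98 ± 0.19 (limma, adjusted p = 4.72e-05) and not this bound. With normexp the difference was 0.70. Col9a2 read 0.95, 0.29, −1.56 and −0.96 in polyps, against −2.66, −2.35, −2.78 and −2.59 in Apc normal and −2.54, −2.45, −2.15 and −1.72 in wild-type tissue. The polyps differed among themselves more than from the nearest normal array, and the difference from Apc normal tissue was 2.28 ± 0.51 (limma, adjusted p = 0.00736). It was 3.13 on the slide of mice 103 and 106 and 1.42 on that of mice 107 and 110. For Col9a1 the probe used gave 0.10 ± 0.46. Its other probe read −3.27, −3.16, −4.95 and −4.03 in polyps, against −7.49, −7.42, −7.44 and −8.31 in Apc normal and −7.81, −8.22, −7.91 and −7.82 in wild-type tissue, where it was not above background. By that probe polyps were at least 4.21-fold higher than Apc normal tissue.

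Collagen VI, a beaded filament around cells, was lower in polyps in the chains Col6a1 and Col6a2, whose genes neighbour each other on chromosome 10. Col6a1 read 2.46, 2.07, 2.25 and 1.92 in polyps, against 3.19, 3.72, 3.13 and 3.30 in Apc normal and 3.68, 3.71, 3.76 and 2.27 in wild-type tissue. Col6a2 read −0.19, −0.45, −0.50 and −0.72 in polyps, against 0.80, 1.13, 0.58 and 0.45 in Apc normal and 1.24, 1.23, 1.04 and −0.32 in wild-type tissue. Both were lower in all polyps than in any Apc normal array, and only the wild-type array of mouse 108 fell within the polyp range. The differences from Apc normal tissue were −1.16 ± 0.17 for Col6a1 and −1.21 ± 0.18 for Col6a2 (limma, adjusted p = 0.00112 and 0.00103). Col6a3, the longest chain of the same protein, was not called (0.20 ± 0.16). Col6a5, an alternative to Col6a3, was above background on all Apc normal arrays and on no polyp array. It read −7.19, −6.56, −5.86 and −6.79 in polyps, against −4.55, −4.26, −3.79 and −5.12 in Apc normal and −4.49, −4.40, −4.96 and −6.17 in wild-type tissue. Polyps were thus at least 3.42-fold below Apc normal tissue. The test used the measured difference of −2.17 ± 0.35 (limma, adjusted p = 0.0016) and not this bound. Col6a4, another such chain, was not called between polyps and Apc normal tissue (0.56 ± 0.31).

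The promoters of Col7a1, with the greatest increase of any member, of a collagen IX chain that was higher and of Col6a1, which was lower, are shown with the motifs found in them. Each is the 250 bases before the RefSeq start in GRCm38.p6, with matches in capitals: Col7a1 at chr9:108953336-108953585 (plus strand), Col9a2 at chr4:121039316-121039565 (plus strand) and Col6a1 at chr10:76726045-76726294 (minus strand).
Col7a1: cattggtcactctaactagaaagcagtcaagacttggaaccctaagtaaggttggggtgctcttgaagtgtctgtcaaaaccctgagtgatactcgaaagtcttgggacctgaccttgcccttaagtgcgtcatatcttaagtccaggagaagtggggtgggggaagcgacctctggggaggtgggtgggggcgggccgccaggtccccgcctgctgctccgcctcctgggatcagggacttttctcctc
Col9a2: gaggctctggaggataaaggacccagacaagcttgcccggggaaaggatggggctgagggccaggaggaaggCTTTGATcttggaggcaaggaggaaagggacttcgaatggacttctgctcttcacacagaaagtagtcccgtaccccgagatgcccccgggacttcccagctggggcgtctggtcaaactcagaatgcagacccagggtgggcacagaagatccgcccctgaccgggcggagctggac
Col6a1: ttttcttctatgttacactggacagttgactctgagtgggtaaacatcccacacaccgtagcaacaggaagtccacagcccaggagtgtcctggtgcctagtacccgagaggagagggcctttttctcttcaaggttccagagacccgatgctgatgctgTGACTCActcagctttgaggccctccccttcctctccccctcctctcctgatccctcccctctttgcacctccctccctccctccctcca
The motifs searched, on both strands, were CTTTGAA or CTTTGAT, and CTTTGTA or CTTTGTT, for the TCF/LEF factors of Wnt signalling, TGAGTCA for AP-1 and GGAATG for TEAD. Col9a2 held CTTTGAT, Col6a1 held TGAGTCA on the other strand, and Col7a1 held no match in this window. Of the 44 members with a promoter in the RefSeq table, 8 held a TCF/LEF match, against 16.75% of all 27025 genes. They include 1 of the 9 members called higher and 2 of the 8 called lower that have a promoter in the table. An AP-1 match was in 1 of 44 (Col6a1), against 5.16% of all genes, and a TEAD match in 4 of 44, against 14.36%. A match is a run of letters and no binding was measured.

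The remaining other collagens were called in either direction. Col18a1, the vascular and epithelial basement membrane collagen that yields endostatin, was higher in polyps by 1.46 ± 0.28, and its second probe gave 1.21. Col12a1, which sits on collagen I fibrils, was higher by 1.22 ± 0.35. Col22a1, a collagen of tissue junctions, was called higher (1.65 ± 0.49), but only 1 of 4 Apc normal arrays was above background, so the size rests on dim signal, and it was 0.52 with normexp. These last calls were weak: without the Apc normal array of mouse 110 Col12a1 gave 1.03 with an adjusted p of 0.0525, and Col22a1 lost its call when the normal array of mouse 103, or the polyp array of mouse 106 or 107, was left out (1.40 to 1.53, limma, adjusted p = 0.0631 to 0.069). Col8a2 and Col8a1, the chains of the short-chain network collagen VIII, were lower, Col8a1 with −1.62 ± 0.43 and Col8a2 by at least 3.29-fold, as it was above background on no polyp array. Col8a1 was above background on 2 of 4 polyp arrays, and with normexp it was not called (−0.66, limma, adjusted p = 0.0628). The second probe of Col8a2, above background on 3 arrays of each group, gave −0.61. Col20a1 was lower (−0.95 ± 0.16). Not called were Col6a3, Col6a4 and Col9a1 (above), Col14a1 (−0.59 ± 0.26), Col15a1 (−0.04 ± 0.26), Col16a1 (−0.17 ± 0.22) and Col23a1 (0.72 ± 0.31).

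Col10a1, Col13a1, Col17a1, Col19a1, Col25a1, Col28a1 and Col6a6 were too dim to test. Col17a1, a transmembrane collagen of hemidesmosomes, was above background on 3 of 4 polyp arrays and on no normal array. Its polyp mean of −5.56 ± 0.35 (SD, n = 4) includes an array not above background, so no bound on the difference is given. A single array decided some of these means: Col13a1 read −1.71 on the Apc normal array of mouse 106, against −6.85 to −6.22 on the others of its group, and Col6a6 read −2.78 on the wild-type array of mouse 104, against −8.28 to −7.66 on the others.

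**Figure D3:**
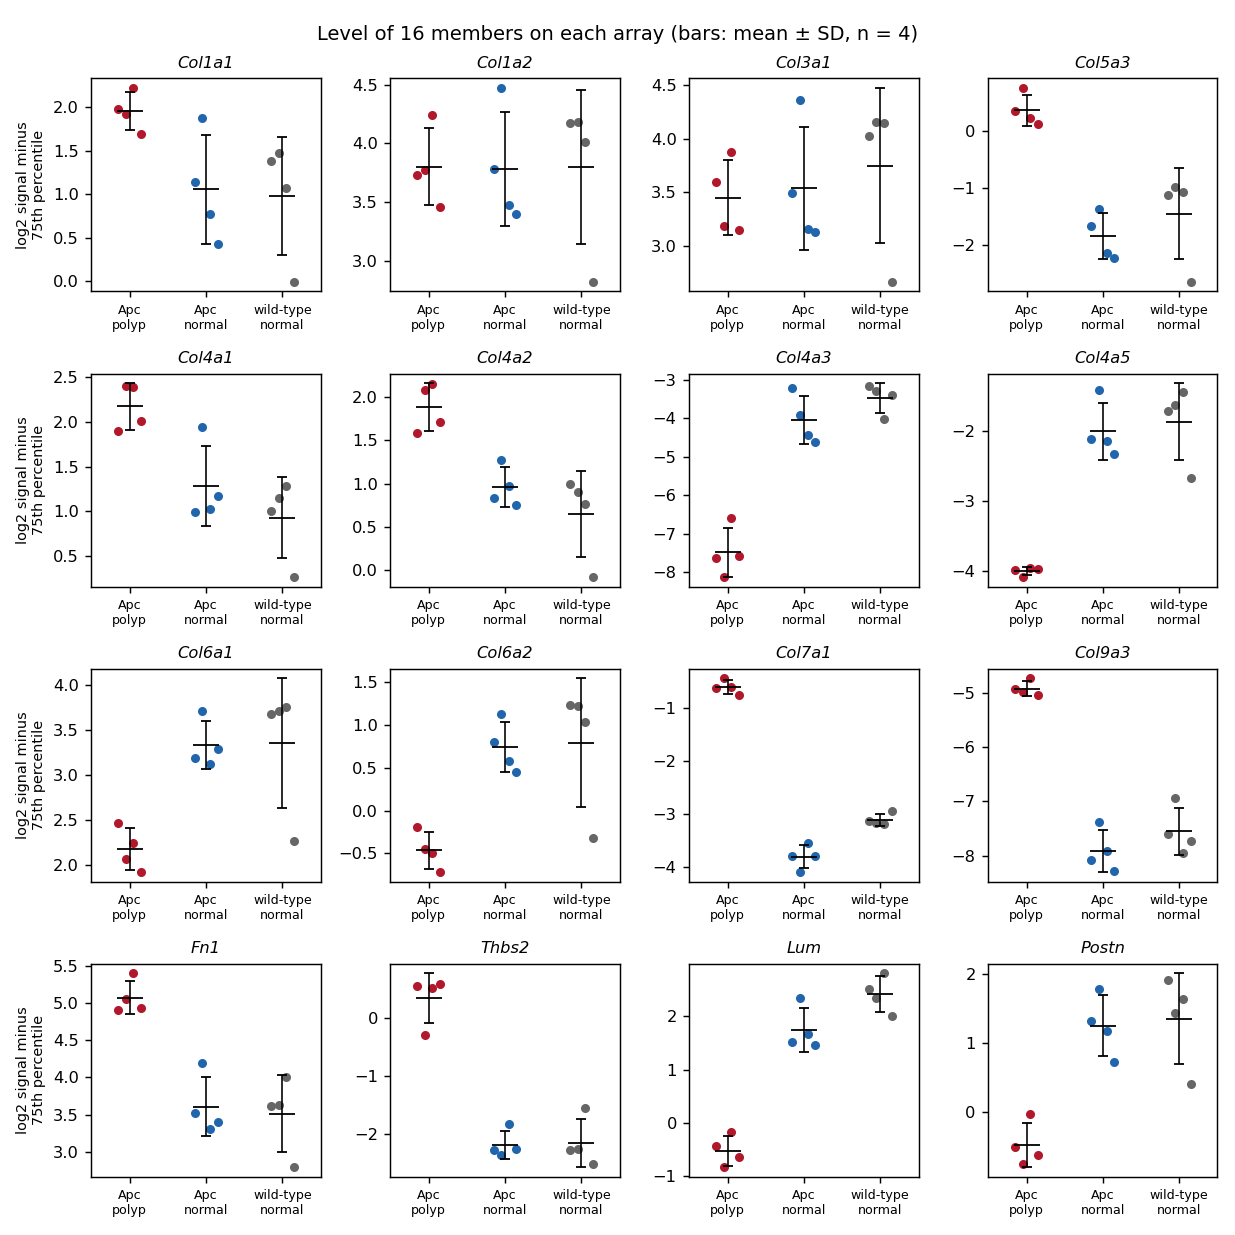
Levels of 16 members (log2 signal minus the array's 75th percentile, vertical axis, scaled per gene) on each array of Apc polyps (red), Apc normal (blue) and wild-type normal tissue (grey), with mean and SD of 4 arrays. Col1a2 and Col3a1 overlap between the groups, Col7a1 and Col9a3 are highest in polyps, and Col4a3, Col4a5 and Lum are lowest in polyps. The lowest grey point of Col1a1, Col1a2, Col3a1, Col5a3, Col6a1 and Col6a2 is mouse 108.

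Of the 16 other matrix genes, all of which were tested, 7 were higher in polyps, 2 lower and 7 not called. The adhesive glycoproteins were among the higher ones. Fibronectin (Fn1), which carries the main cell-binding sequence of provisional matrix, read 4.90, 5.06, 5.40 and 4.94 in polyps, against 3.52, 4.19, 3.31 and 3.40 in Apc normal and 3.61, 3.63, 4.01 and 2.79 in wild-type tissue. All polyps lay above every normal array, by 1.47 ± 0.21 over Apc normal tissue (limma, adjusted p = 0.00099). Thbs2, a thrombospondin, which regulates fibril assembly and vessel growth, read 0.54, −0.31, 0.52 and 0.58 in polyps, against −2.27, −2.35, −1.82 and −2.26 in Apc normal and −2.28, −2.25, −1.55 and −2.51 in wild-type tissue. Thbs1, its close relative and an activator of latent TGF-beta, read 1.29, 2.09, 1.88 and 1.79 in polyps, against −1.25, −0.01, −0.03 and −1.36 in Apc normal and −1.19, −0.55, −1.07 and −1.26 in wild-type tissue. Neither overlapped between polyps and normal tissue, and the differences from Apc normal tissue were 2.51 ± 0.23 for Thbs2 and 2.43 ± 0.36 for Thbs1 (limma, adjusted p = 0.000137 and 0.00109). Tnc, the anti-adhesive tenascin C, was higher by 1.25 ± 0.35, a call that ended without the polyp array of mouse 106 (1.06, limma, adjusted p = 0.056).

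The crosslinking enzymes Lox and Loxl2 were also higher, Lox by 2.42 ± 0.46 and Loxl2 by 1.34 ± 0.22. Lox was above background on all 4 polyp arrays, on 1 Apc normal array and on no wild-type array. The size of its difference from Apc normal tissue thus rests on dim signal, and was 1.05 with normexp. The polyps were at least 4.90-fold higher than wild-type tissue. The call of Fbln1, a fibulin of elastic fibres and basement membranes, depends on the probe: the one used gave 0.76 ± 0.15 and the other 2 gave −0.05 and 0.03, although all 3 were above background on every array.

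Lumican (Lum), a proteoglycan that spaces collagen fibrils, read −0.43, −0.82, −0.17 and −0.64 in polyps, against 1.51, 2.35, 1.66 and 1.46 in Apc normal and 2.52, 2.34, 2.80 and 2.01 in wild-type tissue. Periostin (Postn), a matricellular protein of fibroblasts, read −0.51, −0.74, −0.02 and −0.62 in polyps, against 1.31, 1.78, 1.17 and 0.72 in Apc normal and 1.91, 1.43, 1.64 and 0.41 in wild-type tissue. All polyps lay below every normal array for both genes. The differences from Apc normal tissue were −2.26 ± 0.23 for Lum and −1.72 ± 0.25 for Postn (limma, adjusted p = 0.000211 and 0.000918), and from wild-type tissue −2.94 ± 0.20 and −1.82 ± 0.32 (limma, adjusted p = 1.36e-05 and 0.00149). The related proteoglycans Dcn (−0.03 ± 0.28) and Bgn (−0.16 ± 0.21) were not called. Neither were Sparc (0.40 ± 0.18), Vcan (−0.29 ± 0.17), Fbn1 (−0.05 ± 0.34), Eln (−0.68 ± 0.42) or Fbln2 (−0.90 ± 0.33).

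Chains that share a protein, and relatives of 1 family, were also set against each other within each array, where the scaling of the array cancels. The 10 pairs were picked after the values were seen, so their log2 ratios are given as a description with no test. Col4a1 over Col4a2 was 0.29 ± 0.04 in polyps and 0.33 ± 0.28 in Apc normal tissue (SD, n = 4 each), and Col6a1 over Col6a2 was 2.64 ± 0.09 in polyps and 2.59 ± 0.19 in Apc normal tissue. Thbs1 over Thbs2 was 1.43 ± 0.69 in polyps and 1.51 ± 0.68 in Apc normal tissue. These pairs moved by similar amounts.

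Other partners separated. Col1a1 over Col1a2 was −1.85 ± 0.13 in polyps and −2.73 ± 0.17 in Apc normal tissue (SD, n = 4 each), and did not overlap although the levels of Col1a1 did. Col6a1 over Col6a3 was 0.89 ± 0.04 in polyps and 2.25 ± 0.20 in Apc normal tissue, and Col5a3 over Col5a1 was 1.02 ± 0.28 in polyps and −0.91 ± 0.15 in Apc normal tissue. Lum over Dcn was −5.99 ± 0.32 in polyps and −3.75 ± 0.38 in Apc normal tissue. Col9a2 over Col9a1 (3.46 ± 1.37 in polyps, 1.29 ± 0.87 in Apc normal tissue) and Col4a5 over Col4a6 (−2.26 ± 0.85 in polyps, −0.12 ± 0.94 in Apc normal tissue) rest on the probes used of Col9a1 and Col4a6. Col4a3 over Col4a4, −3.17 ± 0.55 in polyps and 0.06 ± 0.83 in Apc normal tissue, uses the Col4a3 signal of polyps that was not above background.

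**Figure D4:**
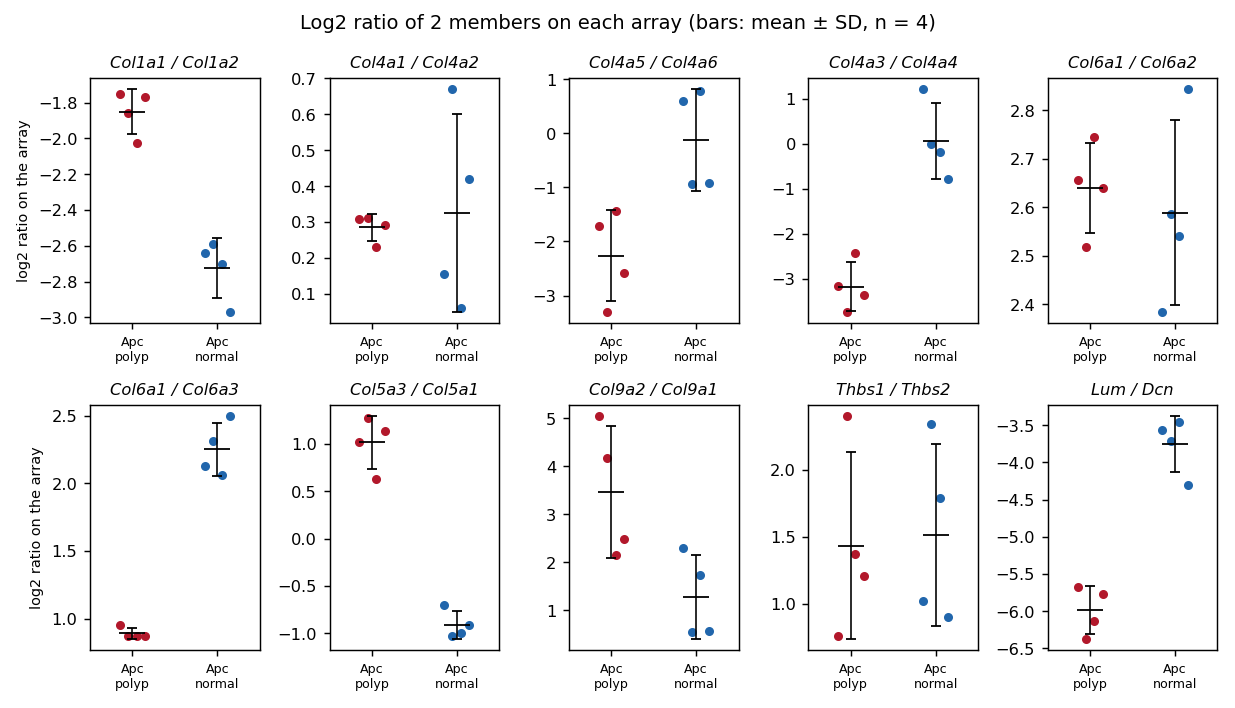
Log2 ratio of 2 members on the same array (vertical axis, scaled per pair) in Apc polyps (red) and Apc normal tissue (blue), with mean and SD of 4 arrays. The ratios Col4a1 / Col4a2, Col6a1 / Col6a2 and Thbs1 / Thbs2 overlap between the tissues, and Col1a1 / Col1a2, Col6a1 / Col6a3, Col5a3 / Col5a1 and Lum / Dcn do not.

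Between Apc normal and wild-type normal tissue no member was called in either direction, of 45 tested. Over all 19291 genes tested 0.238% were called by limma, 0.202% higher and 0.0363% lower. An unadjusted p under 0.05 was found for 4 of the 45 members: Col7a1, Col8a2, Col6a4 and Lum. Over all genes 3351 of 19291 had such a p, a larger share than among the members. Col7a1 was lower (−0.70 ± 0.13, limma, adjusted p = 0.074), with all 4 Apc normal arrays below all 4 wild-type arrays. With all 12 arrays in 1 fit its adjusted p was 0.0299, and with slide as a random block, which called 4.04% of all genes, 0.0138 (limma). Col6a4 read −2.97, −2.35, −1.84 and −2.78 in Apc normal tissue, against −3.62, −3.37, −4.61 and −4.91 in wild-type tissue. The difference was 1.64 ± 0.39 (limma, adjusted p = 0.115). Its second probe gave 1.63, but was above background on only 1 Apc normal array and on no wild-type array. The size given by that probe thus rests on dim signal. Col6a4 too was called with the random block of slide (limma, adjusted p = 0.0283). Col8a2 differed by −1.27 ± 0.30, and without the Apc normal array of mouse 103 by −1.46 (limma, adjusted p = 0.0488). The second probe of Col8a2, above background on 3 arrays of each group, gave 0.68, the opposite direction. Lum differed by −0.67 ± 0.24 (limma, adjusted p = 0.22). All wild-type arrays were on 1 slide and all Apc arrays on 2 others, so slide and genotype cannot be told apart here. A block of slide cannot separate them either, and the calls made with it are no added evidence.

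Polyps against wild-type tissue gave 17 members higher and 12 lower of 47 tested, with 60.6% of all 19974 genes called, 27.6% higher and 33% lower. This comparison shares the polyp arrays with that against Apc normal tissue, so its values are set beside those above and are no second line of evidence. The wild-type arrays were on slide 1 and the polyp arrays on slides 2 and 3, so slide and group cannot be told apart here either. Col7a1 (2.51 ± 0.10), Lum (−2.94 ± 0.20), Thbs1 (2.78 ± 0.21) and Col9a3 (at least 2.01-fold higher) had the smallest p-values of the called members. For Col9a3 the p-value is that of the measured signal and not of the bound. Members called here and not against Apc normal tissue were Col14a1 (−1.31 ± 0.32) and Col16a1 (−0.63 ± 0.13), collagens that associate with fibrils, the elastic fibre gene Fbln2 (−1.42 ± 0.38) and Col6a4 (2.20 ± 0.39). Whether the 2 differences of any of these genes are unequal was not tested.

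The machinery around the collagens was described with lists of pathway genes, by counts against the 21% higher and 24.7% lower of all genes. For collagen synthesis and secretion, 5 of 18 tested genes were higher in polyps than in Apc normal tissue and 3 lower, with a median of 0.03. Colgalt1 and Plod3, which glycosylate or hydroxylate collagen lysines, were higher by 0.97 ± 0.11 and 0.94 ± 0.13, and the prolyl hydroxylase P3h2 and the secretion factor Mia3 lower (−1.29 ± 0.26 and −0.89 ± 0.22). For maturation and crosslinking, 4 of 11 were higher and 2 lower, with a median of −0.35. Bmp1, the procollagen C-proteinase, was higher by 1.77 ± 0.22 and Loxl4, a lysyl oxidase, by 0.84 ± 0.15, while the small proteoglycans Ogn and Fmod were lower (−2.60 ± 0.32 and −0.56 ± 0.14).

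For collagen breakdown, 7 of 14 were higher and 2 lower, with a median of 1.26, the furthest from the −0.05 of all genes among the pathway lists. The collagenase Mmp13 averaged 3.58 ± 0.41 in polyps and −3.41 ± 0.45 in Apc normal tissue, and the stromelysin Mmp10 4.66 ± 0.53 in polyps and −2.84 ± 0.79 in Apc normal tissue (SD, n = 4 each). Their differences were 6.99 ± 0.27 and 7.51 ± 0.42. The membrane-bound Mmp15 (−0.80 ± 0.20) and the inhibitor Timp4 (−1.71 ± 0.57) were lower. The list holds inhibitors beside proteases, and the inhibitor Timp1 was among the higher genes (2.57 ± 0.38). Timp2 (0.08 ± 0.11) and Timp3 (0.58 ± 0.23) were not called. For laminins and other basement membrane genes, 8 of 15 were higher and 2 lower, with a median of 0.54. Lama5 was higher by 2.52 ± 0.11 and Agrn by 1.21 ± 0.15, and the laminin chains Lama2, prominent around muscle, and Lamc3 were lower (−1.91 ± 0.30 and −1.06 ± 0.21). Of 8 collagen receptors 1 was higher, Itgb1 (0.64 ± 0.16), and 1 lower, Ddr2 (−1.57 ± 0.23), with a median of 0.20. Of 12 elastic fibre and microfibril genes 2 were higher and 2 lower, with a median of −0.12: Ltbp2 (3.21 ± 0.54) and Efemp2 (0.65 ± 0.19) were higher and Mfap5 (−2.68 ± 0.31) and Efemp1 (−2.22 ± 0.27) lower.

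The tissues differed in markers of the cells that make matrix. All 9 tested smooth muscle markers were lower in polyps, with a median difference of −3.53 from Apc normal tissue. Their summed level was 4.92 to 5.89 in polyps, against 8.28 to 8.73 in Apc normal and 8.82 to 9.30 in wild-type tissue. Smtn (−2.44 ± 0.16) and Mylk (−2.92 ± 0.20) had the smallest p-values, and Lmod1 was above background on no polyp array. Of 9 markers of enteric neurons and glia, 8 were lower and 0 higher, with a median of −1.94 and summed levels of −1.19 to −0.34 in polyps, against 0.69 to 1.22 in Apc normal and 1.10 to 2.03 in wild-type tissue. Among them Prph, a neuronal intermediate filament, differed by −3.90 ± 0.49.

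Of 8 tested fibroblast markers 1 was higher and 3 lower in polyps, with a median of −0.03. The summed level, in which the Vim probe contributes most, was 4.10 to 4.42 in polyps, against 3.41 to 3.92 in Apc normal and 3.26 to 3.95 in wild-type tissue. Dpt was lower (−2.47 ± 0.16) and Vim higher by 1.31 ± 0.13. Of 6 pericyte markers 1 was higher and 2 lower (median −0.54), among them Cspg4 (−1.35 ± 0.18) and Abcc9 (−1.21 ± 0.19), and of 9 endothelial markers 1 was higher, Cdh5 (1.08 ± 0.21), and 1 lower, Tek (−0.50 ± 0.16), with a median of 0.05. Of 9 markers of colon epithelium, all well above background in the polyps as labelled, 6 were lower and 0 higher (median −1.13), led by Slc26a3 (−5.31 ± 0.42) and Car1 (−3.12 ± 0.41). Their summed level was 8.24 to 8.60 in polyps, against 9.18 to 9.73 in Apc normal and 9.40 to 9.71 in wild-type tissue.

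Of 7 leukocyte markers 2 were higher and 1 lower (median 0.01), with Itgam at −1.91 ± 0.17 and Cpa3 at 4.27 ± 0.51. Of 3 tested adipocyte markers 1 was lower, Fabp4 (−1.26 ± 0.33), and Cidec (−3.16 ± 1.14) was not called. Of 2 tested mesothelial markers 1 was higher, Msln (2.19 ± 0.68), and Upk1b (−1.72 ± 0.72) was not called. Against wild-type tissue Msln was higher in polyps and the other 4 mesothelial markers lower. The part of these cell types in the differences of the members was not tested.

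**Figure D5:**
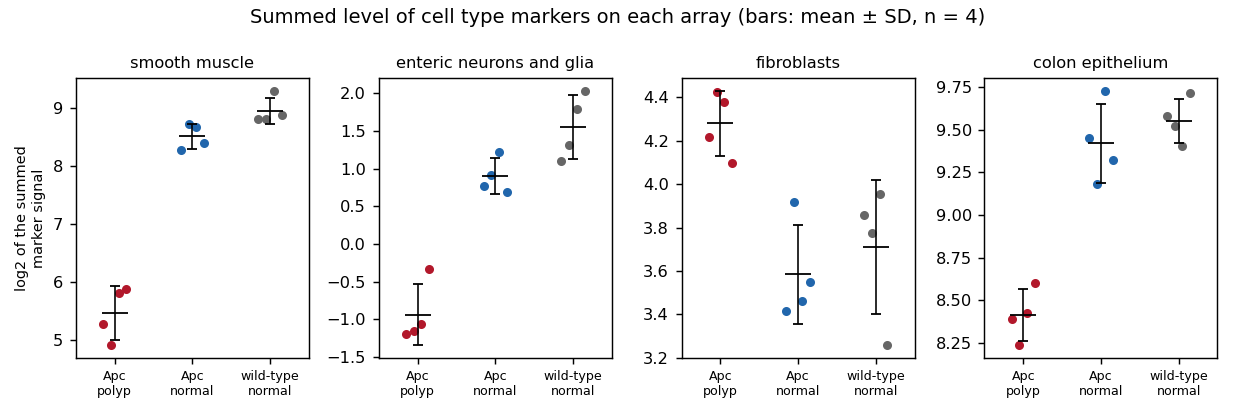
Log2 of the summed signal of the marker genes of 4 cell types (vertical axis, scaled per panel) on each array of Apc polyps (red), Apc normal (blue) and wild-type normal tissue (grey), with mean and SD of 4 arrays. Smooth muscle, enteric nerve and epithelial markers are lower in all polyps than in any normal array, and the fibroblast sum is higher in all polyps.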

How the data were processed

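Total RNA from 12 samples was labelled with Cy3 and hybridised to Agilent 44K-probe mouse arrays of 60-base probes. The deposited scanner files hold background-subtracted spot intensity on a linear scale, written by Agilent Feature Extraction 10.7.3.1 per the file headers, with no scaling between arrays recorded. The deposited value table holds a ratio per probe, within 1% of the processed intensity divided by a constant for 99.8% to 99.9% of entries per array. Its column medians were 1.0009 to 1.0029 and how it was made is not stated in these sources. It served as an alternative.

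Spots of control probes and 1403 spots marked as outliers were dropped, log2 signals were averaged per probe, and the 75th percentile of each array was subtracted. RefSeq (GRCm38.p6, for names alone) gave the symbol of 27508 of 39429 probes through the accession, of 3544 through a symbol still in use and of 404 through a synonym. The other 7973 keep the name in the file. The probe of highest mean stood for a gene. A gene entered a test where all 4 arrays of either group compared had its probe well above background. Each comparison used its 8 arrays (limma 3.58.1, R 4.3.3, lmFit and eBayes, two-sided). Between 64.6% and 73.8% of spots per array were well above background and 0 were saturated. The number of arrays limits the precision. The steps were tested on simulated data.

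Every member may be named with its difference. Values per array are given for the 5 tested members of smallest p per class in polyps against Apc normal tissue, up to 4 called members of smallest p in the other comparisons, and Col1a1, Col1a2, Col3a1, Col4a1, Col4a2 and Fn1. Of each pathway list, the 2 called members of smallest p per direction are named, and of each marker list the 2 of smallest p, except 1 gene that is not reported here. Genes beyond this were named after their values were seen. The members and lists were chosen with earlier results of these data known.

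Deviations of same-mouse arrays from their group means correlated at r = 0.468, 0.178, 0.141 and 0.288 over genes (mice 103, 106, 107 and 110), and those of other mice at −0.344 to 0.198. The shared mouse numbers pair the tissues. The wild-type arrays shared slide 1, the arrays of mice 103 and 106 slide 2, and those of mice 107 and 110 slide 3. Alternatives were other scalings, normexp correction (offset 50), other filters, the mean over probes, 1 fit of all 12 arrays, a robust prior with variance trend, slide or mouse as a block, each slide alone and each array left out. A filter over all 3 groups was added after seeing the data.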

Additional observations from a re-analysis of the deposited data

Results flagged for a closer look

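Of 61 groups of 4 arrays of the members with values per array, 8 held an array far from the other 3, where chance would mark about 1 in 20. Of these, 6 are the wild-type array of mouse 108, which was low in fibrillar collagens and collagen VI. Its levels were 2.82 for Col1a2 (others 4.01 to 4.18), 2.67 for Col3a1 (4.02 to 4.16), −1.95 for Col5a1 (−0.65 to −0.43), −2.65 for Col5a3 (−1.13 to −0.98), 2.27 for Col6a1 (3.68 to 3.76) and −0.32 for Col6a2 (1.04 to 1.24). Its summed smooth muscle markers (8.88, others 8.82 to 9.30) lay within its group, and its summed fibroblast markers were the lowest of the group (3.26, others 3.77 to 3.95). The polyp array of mouse 106 read −4.09 for Col4a5, against −3.99 to −3.97 on the other polyps, a gap that stands out because those lie so close together. It read −0.31 for Thbs2, against 0.52 to 0.58 on the other polyps, and was still above every normal array.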

How the results depend on the processing

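Of 56 called differences over the 3 comparisons, 35 were called in every alternative run that tested them. A run whose filter left a gene out gave no value for it. Of 1159 alternative values of called differences 1105 were past the threshold, 54 were not and 0 reversed. Against 17 members higher and 10 lower in polyps, relative to Apc normal tissue, the counts were 7 higher and 10 lower on slide 2 alone, 7 higher and 4 lower on slide 3 alone (2 arrays against 2), and 6 lower with a stricter filter, which removes probes not above background in polyps. The paired fit, with the mouse as a replicate block, gave 18 higher and 10 lower and ended no call of a named member. Leaving out 1 array at a time gave 14 to 18 higher and 10 to 12 lower, and against wild-type tissue 16 to 18 higher and 12 to 15 lower. For Apc normal against wild-type tissue, 1 member was lower with all 12 arrays in 1 fit (Col7a1), 1 was higher (Col6a4) and 1 lower (Col7a1) with slide as a random block (correlation −0.08), where 4.04% of all genes were called, and 0 to 1 were lower when 1 array was left out. Normexp moved dim probes most: in polyps against Apc normal tissue it gave Col4a5 −1.39, Col6a5 −0.58, Col7a1 2.40 and Col8a2 −0.61, all still called. Col1a1 was not called under 12 of 23 alternatives. With the mean over probes, Fbln1 (0.25), Col12a1 (0.40) and Tnc (1.07) were not called in polyps against Apc normal tissue. The other probe of Col12a1, which enters this mean, was above background on no array. That of Tnc gave 1.36 by itself and had no value on the Apc normal array of mouse 106. The cause of these changes was not tested. Probes near background give bounds or no test at this signal, and 4 arrays a group limit what small differences can be called.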

Other observations

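The brighter probes of Col4a6 and Col9a1, for which the other probe gave another result, read higher at positions 3 and 4 of each slide than at positions 1 and 2. With the Col4a6 probe, positions 1 and 2 read −2.73 and −2.27 on slide 2, −2.93 and −2.52 on slide 3 and −2.78 and −1.80 on slide 1. Positions 3 and 4 read −0.47 and −0.79 on slide 2, −1.42 and −1.39 on slide 3 and −1.10 and −0.78 on slide 1. With the Col9a1 probe, positions 1 and 2 read −4.95 and −4.09, −4.53 and −3.71, and −4.82 and −3.73 on slides 2, 3 and 1, and positions 3 and 4 read −2.90 and −3.87, −3.15 and −3.45, and −3.64 and −3.51. Of the 41 members above background on all 12 arrays these 2 had both higher positions above both lower ones on all 3 slides, and 0 had the opposite order. Over all 17558 such genes, 4.17% had this order and 1.6% the opposite one, so the members' share of 4.88% is near that of all genes. On slides 2 and 3 the positions also separate the mice, while polyps and Apc normal tissue take 1 place in each of these pairs.

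Col13a1 on the Apc normal array of mouse 106 (−1.71) and Col6a6 on the wild-type array of mouse 104 (−2.78) stood far above the other arrays of their group. Whether RNA or a spot is the source was not tested.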
